A study of Homo sapiens with 4 samples.

Results

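The 41 genes described here are the enzymes of glycolysis, the regulators and transporters around that pathway, the oxygen-sensing HIF proteins, and genes that low oxygen induces outside glycolysis. They were chosen by name, and each was read from its brightest probe set, by mean log2 signal over the arrays. Of the 41, 38 had a probe set that the platform annotation gives to that single symbol, out of 19775 such genes in all. SLC16A1, SLC16A3 and CA9 had none and are not analysed here. PFKFB2 and EPAS1 stayed under the filter on low signal, a signal above 24.8 on at least 2 arrays, which left 36 members among 11938 genes tested.

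All samples were Z138, an established human B-cell line from a mantle cell lymphoma, and each sample was hybridised to 1 Affymetrix U133 Plus 2.0 array. The cells of 2 arrays carried short hairpin RNAs against the transcription factor SOX11 (shSOX11.1 and shSOX11.3), and those of the other 2 carried scrambled hairpins (shControl.1 and shControl.2). All 4 were stably transduced with a lentivirus, controls included. Each array held a different construct, so the effect of a construct cannot be told apart from that of its culture or its array, and a p-value here covers just the spread among these 4 samples, which may be technical.

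Glycolysis splits glucose into pyruvate. Glucose enters the cell through transporters of the SLC2A family, a chain of enzymes carries it to pyruvate, and lactate dehydrogenase turns pyruvate into lactate, which transporters of the SLC16A family export. When oxygen is plentiful, prolyl hydroxylases of the EGLN family mark the transcription factor subunit HIF1A for destruction through VHL. When oxygen is short, HIF1A persists, pairs with ARNT and binds promoters and enhancers at sites with the core ACGTG or GCGTG, from which it raises many glycolytic enzymes and other genes.

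Signals are the authors' linear MAS5 intensities. SOX11 signal was 335 with shSOX11.1 and 339 with shSOX11.3, against 797 on shControl.1 and 787 on shControl.2, which is 42.5% of the control level. The trimmed mean signal was 150 on every array. The ratio of 3′ to 5′ signal of beta-actin, which moves with RNA length and with labelling, was 7.29 and 5.31 on the shSOX11 arrays and 11.6 on both shControl arrays, while that of GAPDH lay between 0.978 and 1.06. The part of the beta-actin ratio in the results was not tested. Of the 7 B-cell markers with a probe set, 6 passed the filter and CR2 did not, with summed signals of 8409 and 9922 on the shSOX11 arrays and 11543 and 10956 on the shControl arrays. Markers of other cells passed in 2 of 8 cases for T and NK cells, 3 of 7 for myeloid cells, 2 of 3 for erythroid cells and 3 of 7 for stromal and endothelial cells. Summed signals on the shSOX11 and then the shControl arrays were 249 and 270 against 278 and 301 for T and NK cells, 123 and 108 against 117 and 87.1 for myeloid cells, 71.9 and 60.3 against 91.4 and 67.0 for erythroid cells, and 1589 and 1337 against 1338 and 1360 for stromal and endothelial cells. The markers of other cells under the filter were CD3D, CD3E, CD4, CD8A, NKG7 and GNLY, CD14, LYZ, S100A8 and S100A9, SLC4A1, and COL1A2, COL3A1, CDH5 and VWF. Those that passed included CD3G and CD2 of the T and NK list, and COL1A1, DCN and PECAM1 of the stromal and endothelial list. The part of these markers in the results was not tested.

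The comparison asked which transcripts depend on SOX11. Of the 8 tested hypoxia-induced genes outside glycolysis, ANKRD37, BNIP3, BNIP3L and P4HA1 had higher signal on each shSOX11 array than on either shControl array. These are 4 of 8, where 16.2% of all genes did so, and the groups overlapped for the other 4. The larger difference was on shSOX11.1 in ANKRD37, BNIP3, BNIP3L and P4HA1 at the probe sets used. P4HA2 and NDRG1 were lower in the mean difference. The glycolytic enzymes showed no common direction, and the lowest limma p among all members belonged to TPI1, which was lower on both shSOX11 arrays. No member passed limma's adjusted p of 0.05 over all 11938 genes, and 0% of all genes did. SOX11, the targeted gene, did not pass either, with a limma adjusted p of 0.131. The members' adjusted p in limma ranged from 0.394 to 0.987. At an unadjusted limma p under 0.05 stood 3 members with higher signal (BNIP3L, P4HA1 and ANKRD37), where 3.40% of all genes did, and 1 with lower signal (TPI1), where 4.98% did.

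The groups did not overlap for 7 members with higher signal on the shSOX11 arrays, against 16.2% of all genes, and for 2 with lower signal, against 24.9%. In the other 27 members the arrays of the 2 groups overlapped. The 7 were ALDOC, PDK1, EGLN1, ANKRD37, BNIP3, BNIP3L and P4HA1, and the 2 were TPI1 and SLC2A3. When every one of the 4 possible shSOX11 to shControl pairings had to differ by 1.5-fold or more, 0 members qualified as higher, where 0.762% of all genes did, and 1 as lower (SLC2A3), where 1.93% did. SLC2A3 no longer qualified, leaving 0, with quantile normalization, median centring, a pseudocount of 32, the mean of its probe sets, or a filter at the 65th percentile, which removed it. The median log2 difference over the 36 members was -0.02, against -0.06 over all genes.

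**Figure D1:**
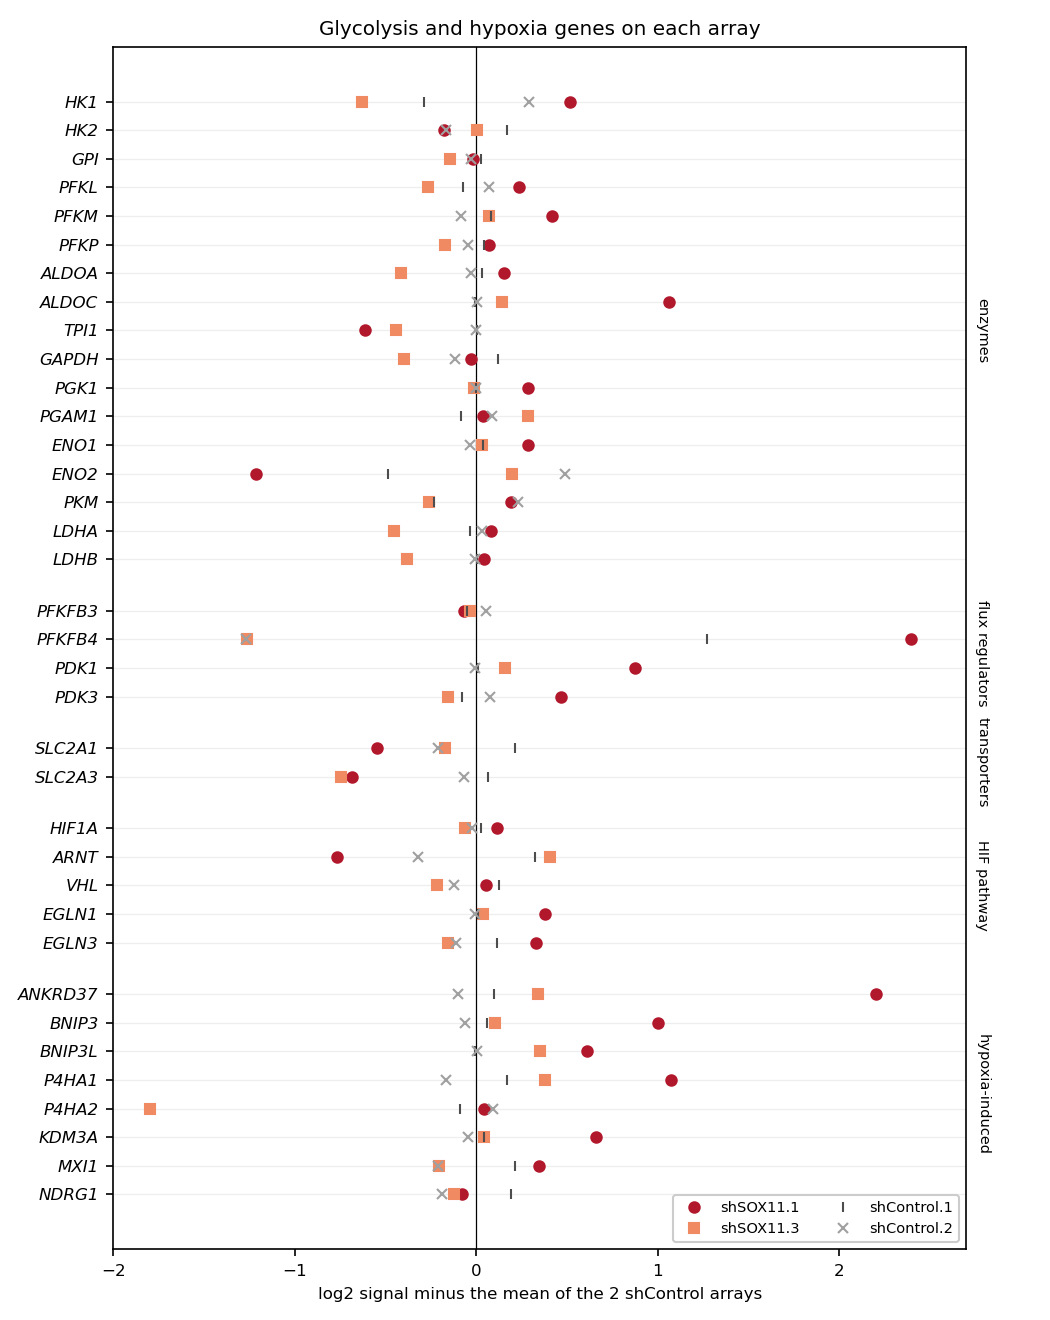
Log2 signal of the 36 tested members on each array, minus the mean of the 2 shControl arrays (horizontal axis, log2 units), with genes down the page grouped by role. Filled circles and squares are shSOX11.1 and shSOX11.3, and bars and crosses are the 2 shControl arrays. ANKRD37, BNIP3, P4HA1 and PDK1 have shSOX11.1 far to the right of the other 3 arrays, while TPI1 and SLC2A3 have both shSOX11 arrays to the left.

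The arrays were then read one by one against the shControl mean. On shSOX11.1, 8 members were at least 1.5-fold higher, where 7.09% of all genes were, and 4 were at least 1.5-fold lower, where 9.0% of all genes were (1074 of 11938). The 4 were TPI1, ENO2, SLC2A3 and ARNT. The 8 were ALDOC, PFKFB4, PDK1, ANKRD37, BNIP3, BNIP3L, P4HA1 and KDM3A. On shSOX11.3, 0 members were at least 1.5-fold higher, where 6.89% of all genes were, and 4 were at least 1.5-fold lower (HK1, PFKFB4, SLC2A3 and P4HA2), where 12.6% of all genes were. The signal was higher on shSOX11.1 than on shSOX11.3 for 29 of the 36 members, or 80.6%, against 58.8% of all genes. With 1 array per construct this difference between the shSOX11 arrays has no replicate check.

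The non-glycolytic hypoxia-induced genes had 8 tested members, of which 6 were higher and 2 lower in the mean difference, where 41.9% of all genes were higher and 58.1% lower. Their median log2 difference was 0.42, against -0.06 over all genes. By array it was 0.64 with shSOX11.1 and 0.07 with shSOX11.3, where all genes had medians of -0.0043 and -0.10, and the difference of shControl.2 from shControl.1 had a median of -0.16 for these 8. All 8 had higher signal on shSOX11.1 than on shSOX11.3. In bulk RNA, a change in the share of cells that express a gene and a change in its RNA per cell cannot be told apart.

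ANKRD37 encodes an ankyrin repeat protein and is a known target of HIF1A. Its signal was 1743 with shSOX11.1 and 480 with shSOX11.3, against 405 on shControl.1 and 354 on shControl.2. The shSOX11.1 array stood far above the others, and shSOX11.3 lay just above both controls. Against the shControl mean ANKRD37 was 4.60-fold higher on shSOX11.1, the rank of 14 among 11938 genes on that array, and 1.27-fold higher on shSOX11.3, a rank of 1819. The group difference was 1.27 on the log2 scale (SE 0.48, log2 means 9.84 ± 1.31 and 8.56 ± 0.14, SD, n = 2 each, limma adjusted p = 0.544). Its second probe set stayed under the filter.

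BNIP3 and BNIP3L encode mitochondrial proteins that mark mitochondria for removal by autophagy. BNIP3 signal was 1498 with shSOX11.1 and 804 with shSOX11.3, against 781 on shControl.1 and 717 on shControl.2. Here too a single array was set apart, 2.00-fold above the shControl mean, while shSOX11.3 was 1.07-fold above it. At a second BNIP3 probe set the signals were 443 and 363 on the shSOX11 arrays and 289 on each shControl array. BNIP3L signal was 721 with shSOX11.1 and 602 with shSOX11.3, against 470 on shControl.1 and 473 on shControl.2. Both shSOX11 arrays were above both controls, and the second BNIP3L probe set gave 451 and 514 against 246 and 275, with shSOX11.3 the higher of the pair. The log2 difference was 0.55 for BNIP3 (SE 0.26, limma adjusted p = 0.598) and 0.48 for BNIP3L (SE 0.16, limma adjusted p = 0.509). Averaged over its probe sets, the BNIP3L difference was 0.69.

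P4HA1 and P4HA2 are catalytic subunits of the prolyl hydroxylases that modify collagen. P4HA1 signal was 329 with shSOX11.1 and 202 with shSOX11.3, against 175 on shControl.1 and 139 on shControl.2. The groups did not overlap, and shSOX11.3 lay nearer to the controls than to shSOX11.1. The log2 difference was 0.72 (SE 0.26, limma adjusted p = 0.519). P4HA2 signal was 38.4 and 10.8 on the shSOX11 arrays, against 35.1 and 39.8 on the shControl arrays, so that only shSOX11.3 was low, under the threshold of 24.8.

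The remaining genes of this group had overlapping groups. KDM3A, a histone demethylase, was at 733 with shSOX11.1 and 477 with shSOX11.3, against 478 and 449 on the shControl arrays, so that shSOX11.3 lay between the controls. MXI1, an antagonist of MYC, was at 585 and 400.0 against 534 and 398, with the groups interleaved. NDRG1, a stress-responsive gene, was at 50.3 and 48.9 with the SOX11 hairpins against 60.6 and 46.6 on the shControl arrays, a log2 difference of -0.10 (SE 0.33, limma adjusted p = 0.938).

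**Figure D2:**
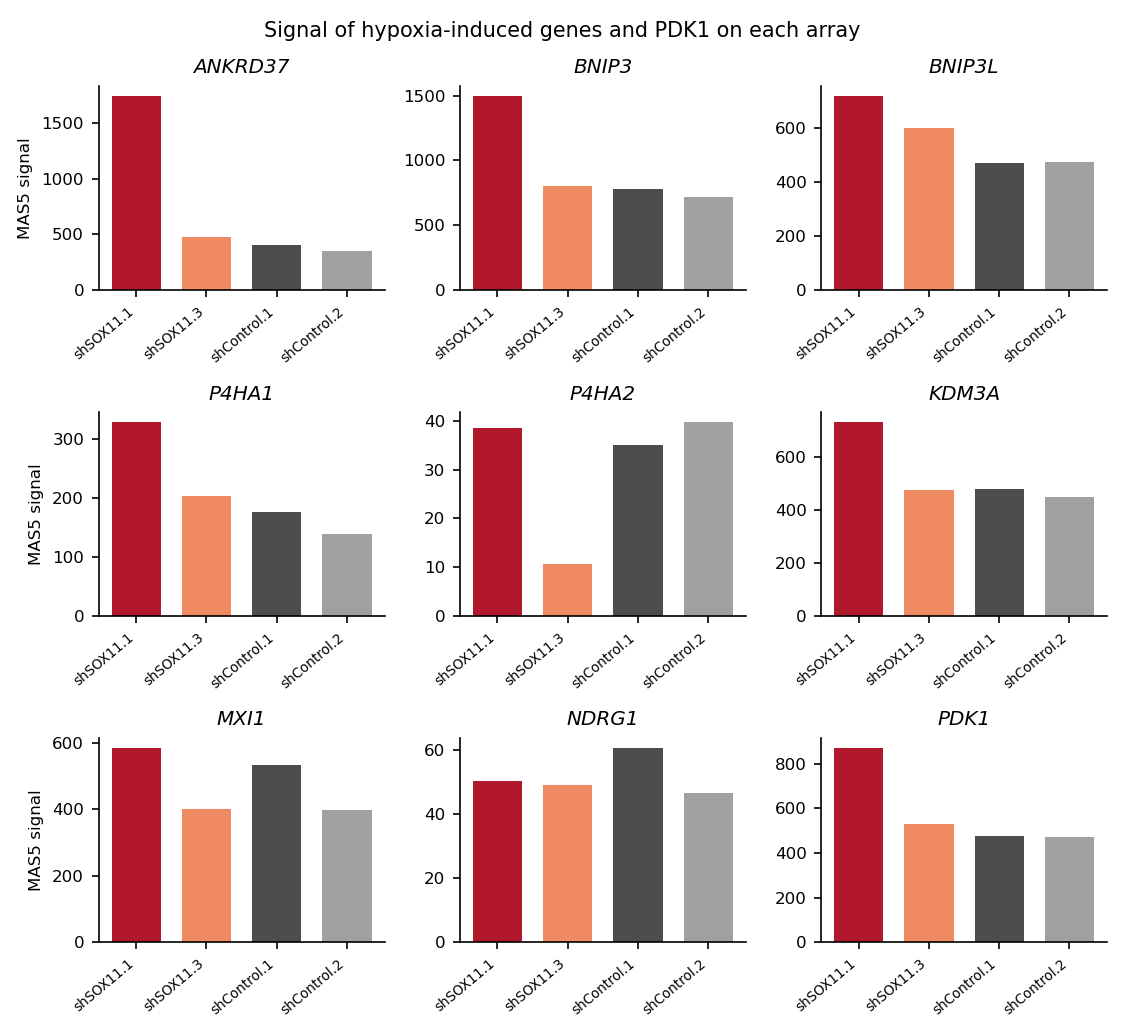
MAS5 signal (vertical axis, linear, from 0) of the 8 tested hypoxia-induced genes and of PDK1 on each of the 4 arrays, 1 bar per array. In ANKRD37, BNIP3, P4HA1, KDM3A and PDK1 the shSOX11.1 bar is the tallest and shSOX11.3 stands close to the shControl bars, while BNIP3L is higher on both shSOX11 arrays.

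Promoters of 4 members are shown for the HIF core. The windows are the 250 bases before the RefSeq start in GRCh38.p14, in the direction of the gene, with every ACGTG or GCGTG on either strand in capitals. The reverse complement of ACGTG is CACGT, so a run of CACGTG counts on both strands. ANKRD37, BNIP3 and P4HA1 are shown as hypoxia-induced members with higher signal on both shSOX11 arrays, and TPI1 as the member with the lowest p, which was lower. BNIP3L, also higher on both shSOX11 arrays, had no window and is not shown. The TPI1 window is the one of its 2 in the table with more matches.
ANKRD37 (chr4:185396591-185396840, plus strand): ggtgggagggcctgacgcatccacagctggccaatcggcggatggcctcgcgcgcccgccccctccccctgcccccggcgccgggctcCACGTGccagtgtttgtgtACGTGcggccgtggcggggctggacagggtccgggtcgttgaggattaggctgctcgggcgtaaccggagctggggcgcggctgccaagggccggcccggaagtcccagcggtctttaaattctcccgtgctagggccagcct
BNIP3 (chr10:131981924-131982173, minus strand): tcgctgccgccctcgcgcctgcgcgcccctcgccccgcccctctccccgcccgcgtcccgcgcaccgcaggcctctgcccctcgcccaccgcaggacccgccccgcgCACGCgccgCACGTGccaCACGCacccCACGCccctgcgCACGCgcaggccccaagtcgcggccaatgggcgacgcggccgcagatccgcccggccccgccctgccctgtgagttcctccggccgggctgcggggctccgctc
P4HA1 (chr10:73096867-73097116, minus strand): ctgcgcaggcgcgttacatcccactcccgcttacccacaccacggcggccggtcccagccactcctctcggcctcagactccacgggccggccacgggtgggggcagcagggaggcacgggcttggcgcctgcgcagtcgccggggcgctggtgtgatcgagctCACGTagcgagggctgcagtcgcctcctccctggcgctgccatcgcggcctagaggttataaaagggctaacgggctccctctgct
TPI1 (chr12:6867855-6868104, plus strand): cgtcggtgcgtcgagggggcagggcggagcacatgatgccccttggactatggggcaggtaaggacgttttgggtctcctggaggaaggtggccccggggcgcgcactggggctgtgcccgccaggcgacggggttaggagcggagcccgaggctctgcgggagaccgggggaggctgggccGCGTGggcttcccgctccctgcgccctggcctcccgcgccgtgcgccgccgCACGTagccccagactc

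In the ANKRD37 window 2 ACGTG matches share a palindrome whose first base lies 162 bases before the start, and another begins 143 bases before it. The BNIP3 window holds a palindrome 134 bases before the start and 4 matches to GCGTG around it. P4HA1 holds 1 ACGTG match, on the opposite strand 86 bases before the start, and TPI1 holds 1 of each core. ACGTG occurred in 18.5% of all 35116 promoter windows in the table, and either core in 43.2%. Among windows of members, ACGTG occurred in 5 of 10 for the hypoxia-induced genes outside glycolysis and in 14 of 37 for the enzymes. GCGTG occurred in 5 of 10 and 10 of 37, against 32.2% of all windows. Either core occurred in 8 of 10 and 19 of 37. The 10 include a window of CA9, which has no probe set here. Of the 41 members, 35 had a window.

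The 17 glycolytic enzymes were all tested, and 5 were higher (41.9% of all genes were) and 12 lower (58.1% of all genes were) in the mean difference. Their median log2 difference was -0.06, the same as that of all genes at 2 decimals. By array the median was 0.08 with shSOX11.1 and -0.17 with shSOX11.3. The groups did not overlap for 1 enzyme with higher signal (ALDOC) and 1 with lower signal (TPI1), and 15 overlapped. These shares of 17 lie below those of all genes, 16.2% higher and 24.9% lower. The range ran from -0.53 for TPI1 to 0.60 for ALDOC.

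TPI1, triosephosphate isomerase, interconverts the triose phosphates that come from the splitting of fructose bisphosphate. Its signal was 4066 with shSOX11.1 and 4576 with shSOX11.3, against 6239 on shControl.1 and 6216 on shControl.2. Both shSOX11 arrays were well under both controls, which were nearly equal. The log2 means were 12.07 ± 0.12 and 12.60 ± 0.0038 (SD, n = 2 each), a difference of -0.53 (SE 0.14, limma adjusted p = 0.394), or 1.44-fold lower. A second TPI1 probe set gave 4030 and 4365 against 6598 and 6106, and another, of lower signal, gave 57.3 and 105.8 against 93.2 and 107.1. The difference held its sign at all 3 probe sets, with groups that did not overlap at 2 of them.

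The hexokinases, GPI and the phosphofructokinases had overlapping groups at the probe sets used. HK1 and HK2 are hexokinases, which phosphorylate glucose. HK2 signal was 735 and 835 on the shSOX11 arrays, against 934 and 741 on the shControl arrays, a log2 difference of -0.09 (SE 0.17, limma adjusted p = 0.894). At a dimmer HK2 probe set the groups did not overlap, at 73.05 and 69.42 against 82.95 and 120.7, a log2 difference of -0.49. At another HK2 probe set they overlapped. HK1 had its highest and its lowest signal on the shSOX11 arrays, at 165 and 74.4 against 94.2 and 140.5. The phosphofructokinase isoforms PFKL, PFKM and PFKP, which commit the sugar to glycolysis, had log2 differences of -0.01, 0.24 and -0.05. PFKP signal was 1005 and 850 against 987 and 930, so that the groups overlapped. GPI, which isomerises glucose phosphate, was at -0.08.

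Of the aldolases, which split fructose bisphosphate, ALDOC had signals of 87.3 with shSOX11.1 and 46.3 with shSOX11.3, against 41.7 and 42.1 on the shControl arrays. It was 2.08-fold above the shControl mean on shSOX11.1 and 1.10-fold on shSOX11.3, with a group difference of 0.60 on the log2 scale (SE 0.39, limma adjusted p = 0.667). ALDOA was at 5385 and 3641 against 4952 and 4748. Here only shSOX11.3 stood apart, on the low side.

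GAPDH, LDHA and LDHB shared that pattern with ALDOA. GAPDH, which oxidises glyceraldehyde phosphate, was at 13913 and 10779 with the SOX11 hairpins against 15413 and 13058 on the shControl arrays. LDHA, the lactate dehydrogenase subunit that favours lactate, was at 13553 and 9354 against 12504 and 13108. LDHB, the other main subunit, was at 13908 and 10348 against 13560 and 13433. In all of these shSOX11.3 lay below both controls, and shSOX11.1 lay between them for GAPDH and above them for LDHA and LDHB. The log2 differences were -0.21 for GAPDH, -0.19 for LDHA and -0.17 for LDHB, with limma adjusted p of 0.710, 0.775 and 0.768. The 3 control probe sets of GAPDH spread along its transcript gave -0.14, -0.14 and -0.13.

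These 3 genes were among the top 1% of genes by mean signal, and the median of that class was low on shSOX11.3. The median of its 119 genes against the shControl mean was -0.33 on shSOX11.3 and -0.01 on shSOX11.1. The highest signal of any probe set was 15560 on shSOX11.3, against 20176 on shSOX11.1, 21338 on shControl.1 and 19659 on shControl.2. After quantile normalization the differences on shSOX11.3 were -0.05 for GAPDH, -0.18 for LDHA and -0.04 for LDHB, where they had been -0.40, -0.45 and -0.38. ALDOA, which is not in that class, was at -0.29 after it and at -0.41 before. TPI1 stayed lower on both arrays after it, at -0.62 on shSOX11.1 and -0.28 on shSOX11.3.

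**Figure D3:**
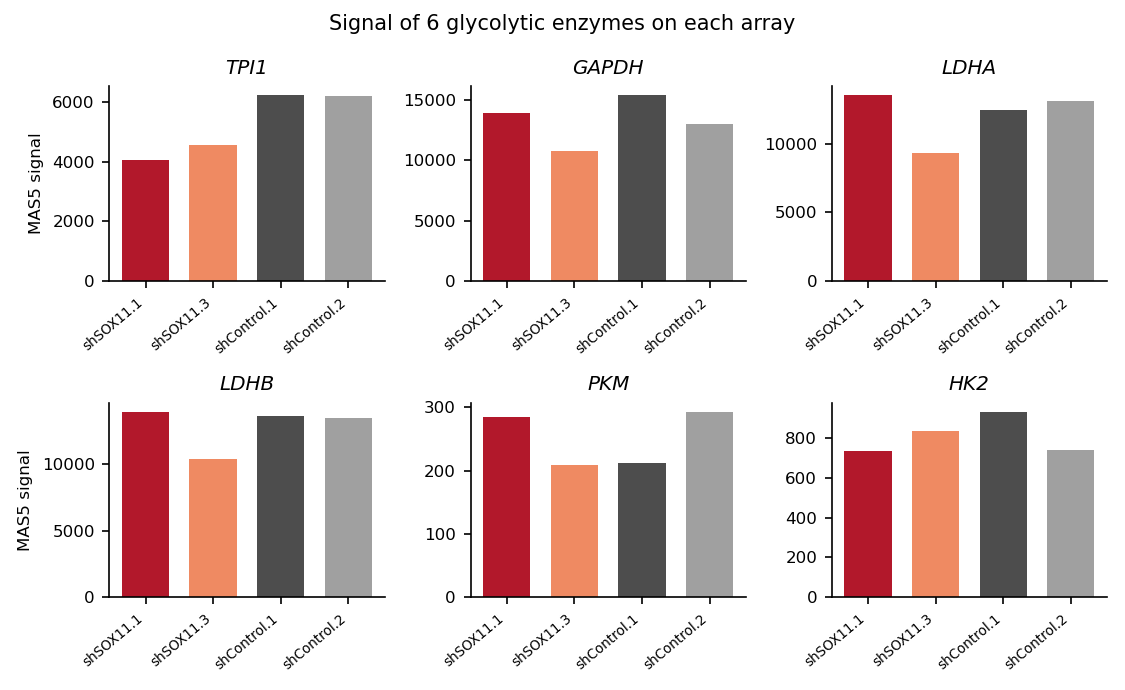
MAS5 signal (vertical axis, linear, from 0) of 6 glycolytic enzymes on each of the 4 arrays, 1 bar per array. TPI1 is lower on each shSOX11 array than on either shControl array, GAPDH, LDHA and LDHB are lowest on shSOX11.3, and PKM and HK2 have overlapping groups.

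The kinase, mutase and enolase steps and pyruvate kinase had overlapping groups at the probe sets used. PGK1 and ENO1, phosphoglycerate kinase and enolase, had log2 differences of 0.14 and 0.16 at the probe sets used, and PGAM1, phosphoglycerate mutase, was at 0.16. PGK1 probe sets ranged from -0.06 to 0.50, and at 2 of the 5 past the filter the groups did not overlap, both higher. At one of these 2 the signals were 2177 and 1751 on the shSOX11 arrays against 1442 and 1327. A second ENO1 probe set gave 3002 and 2080 against 1785 and 2017. ENO2, the neuronal enolase, was at 9.38 and 24.9 against 15.5 and 30.5, around the threshold, so its log2 difference of -0.51 (SE 0.83, limma adjusted p = 0.868) rests on signals near or under it. PKM, the pyruvate kinase, was at 284 and 209 with the SOX11 hairpins against 212 and 293, a log2 difference of -0.03 (SE 0.23, limma adjusted p = 0.971), and its other probe set was at 0.04.

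Of the regulators of glycolytic flux tested, PDK1 was the one whose groups did not overlap at the probe sets used. PDK1 is a kinase that switches off pyruvate dehydrogenase and so keeps pyruvate out of mitochondria. Its signal was 871 with shSOX11.1 and 529 with shSOX11.3, against 478 and 472 on the shControl arrays. At the probe set used, the pattern was that of BNIP3, with shSOX11.1 at 1.83-fold and shSOX11.3 at 1.11-fold of the shControl mean. The log2 difference was 0.52 (SE 0.23, limma adjusted p = 0.591), and all 3 PDK1 probe sets past the filter had groups that did not overlap, with differences of 0.23 to 0.82. A dimmer PDK1 probe set gave 61.2 and 54.9 against 27.4 and 39.3, with the shSOX11 arrays near each other. PDK3, a related kinase, was at 0.16 with its 5 probe sets running from -0.59 to 0.78.

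The PFKFB enzymes set the level of the regulatory form of fructose bisphosphate that activates phosphofructokinase. PFKFB3 was at 144 and 147 with the SOX11 hairpins against 146 and 156 on the shControl arrays, a log2 difference of -0.05. PFKFB4 was at 66.5 and 5.26 against 30.5 and 5.25, so that each group held an array above the threshold and an array under it (SE 1.37, limma adjusted p = 0.915). PFKFB2 was under the threshold on every array, at 14.3 and 20.8 against 4.99 and 14.3 at its brightest probe set.

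Both glucose transporters tested were lower. SLC2A3 signal was 29.1 and 27.8 on the shSOX11 arrays, against 48.9 and 44.5 on the shControl arrays. The groups did not overlap, and all 4 arrays were near the threshold of 24.8. The log2 difference was -0.71 (SE 0.41, limma adjusted p = 0.647), and -0.38 when 32 was added to each signal. Another SLC2A3 probe set gave 25.0 and 17.3 against 42.4 and 34.5. Probe sets that the annotation shares between SLC2A3 and SLC2A14 were not used. SLC2A1, the widespread glucose transporter, was at 104 and 134 against 175 and 131, a log2 difference of -0.36 (SE 0.24, limma adjusted p = 0.675), with overlapping groups.

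The 5 tested HIF pathway genes had log2 differences between -0.18 and 0.21. HIF1A signal was 2154 with shSOX11.1 and 1911 with shSOX11.3, against 2026 on shControl.1 and 1960 on shControl.2. The groups overlapped, with a log2 difference of 0.03 (SE 0.14, limma adjusted p = 0.964). These are transcript signals, and the protein level of HIF1A was not measured. EGLN1, the main HIF prolyl hydroxylase, was at 672 and 530 against 519 and 513, higher on both shSOX11 arrays (log2 difference 0.21, SE 0.17). A dimmer EGLN1 probe set gave 71.2 and 87.7 against 55.9 and 43.2, with shSOX11.3 the higher, and another overlapped. EGLN3, a HIF-induced hydroxylase, was at 81.7 and 58.4 against 70.4 and 60.2, a log2 difference of 0.09 (SE 0.30, limma adjusted p = 0.943). At its second probe set the groups did not overlap, at 60.9 and 43.4 against 73.2 and 66.8, a log2 difference of -0.44. ARNT and VHL were at -0.18 and -0.08 with overlapping groups. EPAS1, the relative of HIF1A that is prominent in endothelium, was at 1.71 and 7.05 against 21.8 and 30.9, above the threshold on a single array, and no fold is given.

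Agreement between probe sets could be read for 19 of the 36 members. In 11 of these all probe sets past the filter had the same sign, among them TPI1, PDK1, BNIP3, BNIP3L, EGLN1 and SLC2A3. In the other 8, PFKL, PFKP, PGK1, PKM, PFKFB4, PDK3, ARNT and EGLN3, both signs occurred. ANKRD37, P4HA1 and ALDOC had a single probe set past the filter.

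**Figure D4:**
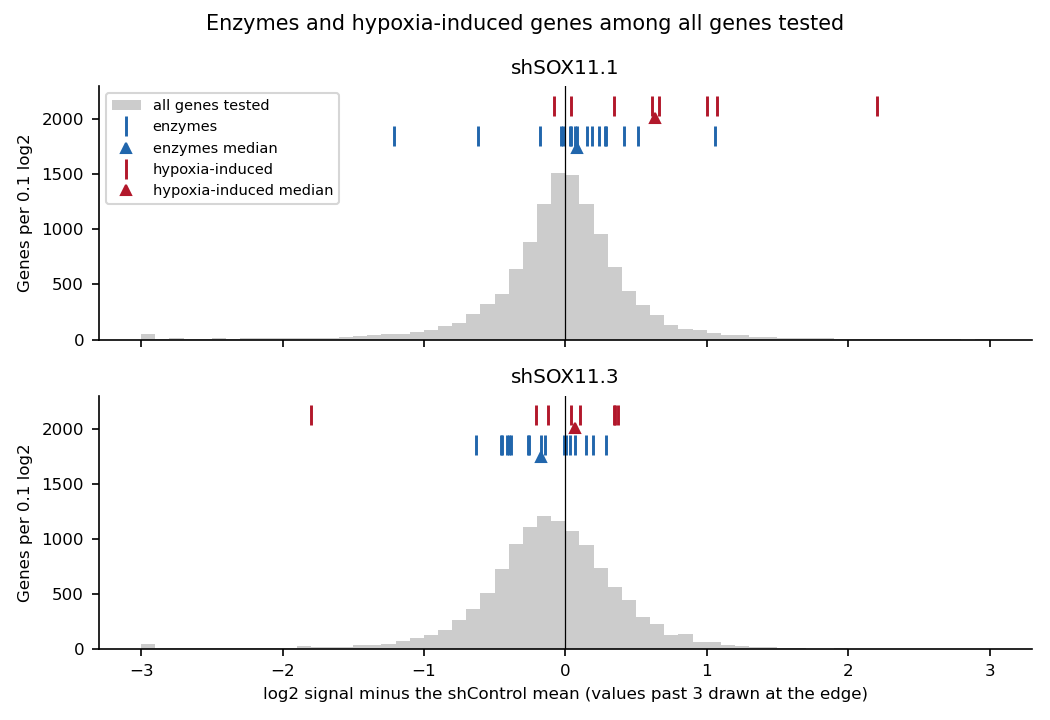
Histograms of the log2 signal minus the shControl mean over all 11938 genes tested (horizontal axis in log2 units, vertical axis genes per bin), for shSOX11.1 above and shSOX11.3 below. Ticks mark the 17 glycolytic enzymes and the 8 hypoxia-induced genes and triangles their medians, which are 0.08 and 0.64 on shSOX11.1 and -0.17 and 0.07 on shSOX11.3.

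Further genes of these pathways followed no single direction. Of 33 other HIF regulators and targets with a probe set, 25 were tested, with 12 higher and 13 lower and a median log2 difference of -0.03. ADM, the vasodilator peptide adrenomedullin, was at 757 and 667 with the SOX11 hairpins against 460 and 487 on the shControl arrays. HILPDA, a hypoxia-induced lipid droplet protein, was lower, at 397 and 320.0 against 550.1 and 464. INSIG2, a sterol regulator, and CUL2, the scaffold of the VHL ubiquitin ligase, were at 0.43 and 0.32. At an unadjusted limma p under 0.05 stood 2 of the 25 with higher signal, where 3.40% of all genes did, and 1 with lower signal, where 4.98% did. Signal was higher on shSOX11.1 than on shSOX11.3 for 19 of the 25, or 76%, against 58.8% of all genes.

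Among the other isozymes and the genes of pyruvate handling, 16 were tested, with 10 higher, 6 lower and a median of 0.12. DLD, a subunit of the pyruvate dehydrogenase complex, was at 3166 and 3630 with the SOX11 hairpins against 2656 and 2447, and PDHX of the same complex was at 798 and 675 against 631 and 557. The muscle enolase ENO3 was at 380 and 394 against 298 and 262, and the fructose transporter SLC2A5 at 115 and 120 against 87.6 and 88.1. Their log2 differences were 0.41, 0.31, 0.47 and 0.42, and the 4 were picked for their small p. Over the 16 genes the groups did not overlap for 5 with higher signal, against 16.2% of all genes, and 1 with lower signal, against 24.9%. In this list 7 of 16 genes had higher signal on shSOX11.1 than on shSOX11.3, or 43.8%, against 58.8% of all genes.

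The pentose phosphate pathway, which branches off glucose phosphate to make NADPH and ribose, had 6 tested genes with 3 higher and 3 lower and a median of 0.01. RPIA, the ribose isomerase, had the smallest p there, with a log2 difference of -0.30 made by shSOX11.3 alone, at 2143 and 1240 against 1960 and 2047. PGLS, RPE and TKT were at -0.18, 0.16 and 0.16. Signal was higher on shSOX11.1 than on shSOX11.3 for 4 of the 6, or 66.7%, against 58.8% of all genes. Over all the further genes tested, the adjusted p of limma lay between 0.394 and 0.995.

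Leaving out an array showed which values rest on it. Without shSOX11.1, the hypoxia-induced genes had a median log2 difference of 0.07 in place of 0.42, and without shSOX11.3 it was 0.64. Without shSOX11.3, the log2 differences were 2.20 for ANKRD37, 1.00 for BNIP3, 1.07 for P4HA1, 0.88 for PDK1 and -0.62 for TPI1. Without shSOX11.1 they were 0.34, 0.10, 0.38, 0.16 and -0.44. For ALDOA, GAPDH, LDHA and LDHB they were -0.41, -0.40, -0.45 and -0.38 without shSOX11.1. Without shSOX11.3 these 4 were at 0.15, -0.03, 0.08 and 0.04. With a lone shSOX11 array the error comes from the shControl arrays alone, so no limma call is given for any of these genes.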

How the data were processed

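Total RNA of 4 Z138 samples was measured on 1 array each, grouped by title. Per the submitters' processing notes, the authors used Affymetrix Expression Console and the MAS5 method, and the deposited values are intensity on a linear scale. No source used here gives program versions or a scaling target. A 2% trimmed mean of 150 on each array shows that the arrays were scaled alike. MAS5 subtracts mismatch signals, so dim probe sets carry more error.

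Of 54675 probe sets, 41091 carried 1 symbol, 1801 several and 11721 none, and 62 were array controls. Symbols came from the platform annotation, and 0 had to be updated against RefSeq. The deposited intensities were converted to log2 with no pseudocount. Probe sets needed a signal over 24.83 (the median of all values) on 2 or more arrays, and the one with the highest mean stood for its gene. limma 3.58.1 (R 4.3.3; lmFit, then eBayes with trend) gave two-sided tests with Benjamini-Hochberg adjustment over 11938 genes, and was tested on simulated data. With 2 arrays against 2, the smallest two-sided p of an exact permutation test is 0.333. The number of arrays limits the precision.

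The members and lists were chosen with earlier results of these data known. Members with groups that do not overlap and an unadjusted limma p under 0.05 were given on every array. So were those 1.5-fold apart on every pairing and 17 fixed ones, though SLC16A3 and CA9 of the 17 had no probe set. Up to 4 genes of each further list were named by smallest p. Of these, INSIG2, CUL2, PGLS, RPE and TKT are given as log2 differences alone. Other members given on every array were picked after their values were seen. The alternatives were median centring, quantile normalization, no filter, a filter at the 65th percentile, a pseudocount of 32, no trend, the mean of probe sets, dropping probe sets that end in _x_at, and leaving out each array. Promoters are from RefSeq (GRCh38.p14).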

Additional observations from a re-analysis of the deposited data

How the results depend on the processing

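In the 8 settings that keep all 4 arrays, limma called 0 members and 0 genes at an adjusted p of 0.05, as with the values above, while 406 genes with higher and 595 with lower signal had an unadjusted limma p under 0.05 with the settings of the report. The median of the enzymes ran from -0.06 to 0.03 and that of the hypoxia-induced genes from 0.39 to 0.52. The 0.52 came with the filter at the 65th percentile, which removed P4HA2 and NDRG1, the lower genes of that group. ANKRD37 ran from 1.22 to 1.36, P4HA1 from 0.63 to 0.81, BNIP3L from 0.46 to 0.69 and TPI1 from -0.53 to -0.45, with limma adjusted p of 0.303 to 0.696 for these 4. Signs turned for PFKP with median centring (0.032) and the mean of probe sets (0.0022), for PKM likewise (0.048 and 0.0029), for LDHB with quantile normalization (0.014) and for EGLN3 with the mean of probe sets (-0.18). Members with groups that do not overlap numbered 13 higher with median centring and 1 lower at the 65th percentile. Median centring moved the median of all genes from -0.06 to 0.02. The shares of all genes in these settings are not given, so this count and the next have no background. Members 1.5-fold apart on all pairs numbered 1 higher with the mean of probe sets, 0 lower with quantile normalization, median centring, the pseudocount, the 65th percentile or the mean of probe sets, and 2 lower with no filter. ALDOC, NDRG1, P4HA2, SLC2A3, PFKFB4 and ENO2 have no value at the 65th percentile, because no probe set was kept. The same holds for ALDOA, GAPDH and LDHB without probe sets ending in _x_at.

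With 1 array left out, limma called 0 to 953 genes and 0 to 5 members. All the calls above 0 came with a lone shSOX11 array. The error there comes from the shControl arrays alone, so no conclusion is drawn from those calls. With any 1 array left out, non-overlapping members numbered 8 to 22 of 36 higher, where all genes reached 26.7% to 36.1%. Those lower numbered 6 to 17, where all genes reached 36.6% to 48.6%. Members 1.5-fold apart numbered 0 to 8 higher and 1 to 3 lower, where all genes reached 2.78% to 3.45% and 3.58% to 8.59%. The 22 and the 8 came without shSOX11.3 (61.1% and 22.2% of members, 36.1% and 2.78% of all genes), and the 17 without shSOX11.1 (47.2% of members, 48.6% of all genes). The log2 difference ran from -0.25 to 0.080 for HK2, from -0.17 to 0.070 for PFKP, from -1.21 to 0.20 for ENO2, from -0.27 to 0.20 for PKM, from -0.45 to 0.082 for LDHA, from -0.38 to 0.043 for LDHB, from -1.26 to 2.39 for PFKFB4, from -0.061 to 0.11 for HIF1A, from -0.16 to 0.33 for EGLN3 and from -0.29 to 0.090 for NDRG1. The cause was not tested for any of these turns. No paired analysis was possible because the groups share a single construct number.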
